A study of Rattus norvegicus with 9 samples.

Results

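Glucocorticoid-responsive genes are described here in brain cortex of rats at sea level and at 2 simulated altitudes. The set holds 10 genes: the receptor genes Nr3c1 and Nr3c2, and 8 genes known to be induced through them. Each member was matched by its symbol in the platform annotation of the bead array, and each had 1 probe, so the set is 10 of the 22523 probes. The arrays come from 3 groups of 3: cortex of rats kept at a simulated 7 km, at a simulated 3 km, or under normal oxygen at sea level. The design sets the gene expression of the 3 groups side by side. No genotype, strain, age or length of exposure is given in the sources used here, and no agent other than the simulated altitude is named. The labels do not say that the replicates are separate animals, so p-values measure only the spread between these arrays, which may be technical.

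Glucocorticoids are adrenal steroids released in stress and on a daily cycle. They cross into brain cells and bind 2 nuclear receptors, the glucocorticoid receptor (Nr3c1) and the mineralocorticoid receptor (Nr3c2). The liganded receptors enter the nucleus and switch on target genes, among them the receptor's own inhibitor Fkbp5, the kinase Sgk1 and the transcription factors Klf9 and Zbtb16. In the brain such targets respond in neurons and in glia and vessels, and several of them, Ddit4 above all, also answer to other stresses such as low oxygen.

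On 8 arrays the median signal was 121 to 159, between 5881 and 6621 probes were detected (detection p-value under 0.05), and pairwise Spearman correlations of the signals were 0.969 to 0.978. Sea level replicate 3 stood apart, with correlations of 0.642 to 0.660, a median signal of 204 and 8170 probes detected. It enters every comparison with sea level, so results are given with all 9 arrays and with the 8 arrays that leave it out; which arrays are sound was not settled. All 8 neuronal markers with a probe were above background on at least 1 array. Markers of choroid plexus, a tissue outside the cortex, had a summed signal of 3030 to 6792 at sea level, 2241 to 2971 at 3 km and 2154 to 2353 at 7 km over the 6 with a probe, of which Folr1, Aqp1 and Clic6 were above background on no array; the mean log2 level of the 2 tested ones, against the 8-array mean, reached 3.39 on sea level replicate 3. Their part in the results was not tested. In bulk tissue, fewer cells of a type and less RNA per cell cannot be told apart.

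Neither receptor gene could be followed. Nr3c1, the glucocorticoid receptor, was above background on 0 of 9 arrays, with detection p-values from 0.273 to 0.686. Nr3c2, the mineralocorticoid receptor, was detected on 1 array, sea level replicate 3, at a detection p-value of 0.0073; on the other 8 arrays it had 0.0776 to 0.190. The levels of these probes can therefore not be ordered between altitudes, and no fold is given.

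The targets fell into those well measured and those below background. Klf9, Fkbp5, Sgk1, Tsc22d3 and Ddit4 were detected on all 9 arrays. Zbtb16, a zinc finger transcription factor, was above background on 0 arrays (detection p-values 0.202 to 0.748), and so was Cdkn1a, the cell cycle inhibitor p21 (0.658 to 0.993). Errfi1, a feedback inhibitor of the EGF receptor, came close without reaching the limit: its detection p-values were 0.0594 on sea level replicate 1 and 0.0739 on 3 km replicate 2, up to 0.167 on the other arrays but sea level replicate 3, and 0.528 on that one. In all, 5 of the 10 members passed the filter for testing, detection on at least 3 arrays, as did 29.6% of all probes. The 5 that passed were detected in every group.

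**Figure D1:**
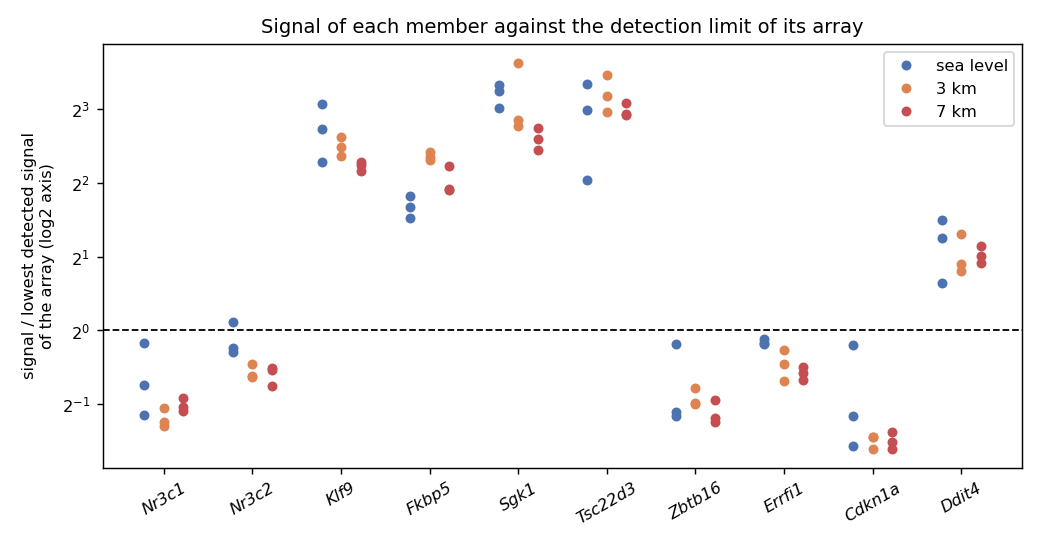
Signal of each member divided by the lowest detected signal of the same array, on a log2 axis; each point is 1 array, coloured by group, and the dashed line at 1 is the detection limit. Klf9, Fkbp5, Sgk1, Tsc22d3 and Ddit4 lie above the line on every array, Nr3c2 on 1 array, and the other 4 members on none.

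None of the 5 tested members passed the test at either altitude. The test was limma on log2 values, with Benjamini-Hochberg adjustment over all probes tested at an adjusted p of 0.05; values after ± are its standard errors. At 7 km against sea level 0.120% of 6656 probes passed, at 3 km 0%, and between 7 km and 3 km 0%. Without sea level replicate 3 the 5 members again gave 0 calls, and 0.308% of 6499 probes passed at 7 km. At an unadjusted p under 0.05, 2 members stood out at 7 km (Klf9 and Sgk1) where 11.4% of probes did, and 2 at 3 km (Klf9 and Fkbp5) where 8.07% did. On the 8 arrays they were Klf9 and Fkbp5 at both altitudes, beside 12.5% of probes at 7 km and 9.48% at 3 km. Between the altitudes 2.70% of probes had an unadjusted p under 0.05 (8.19% on 8 arrays) and 13.6% had groups that did not overlap, and 0 of the members were among either.

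Klf9 and Fkbp5, both known to be induced by glucocorticoids, had mean differences from sea level of opposite sign, and neither passed. Klf9 is a Krüppel-like transcription factor that restrains cell growth and matures neurons. With 9 arrays it had the smallest unadjusted p of the tested members at either altitude. With 8 arrays Fkbp5 had the smaller limma unadjusted p at 3 km, 0.00129 against 0.012 for Klf9. The normalized log2 level of Klf9 at sea level was 9.08, 9.68 and 9.54 on replicates 1, 2 and 3. At 3 km it was 8.66, 8.86 and 8.79, and at 7 km 8.66, 8.71 and 8.46. Every altitude array lay below every sea level array, while the arrays of the 2 altitudes overlapped.

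Group means of Klf9 were 9.43 ± 0.31 at sea level, 8.77 ± 0.10 at 3 km and 8.61 ± 0.13 at 7 km (SD, n = 3 each). The log2 difference from sea level was -0.82 ± 0.15 at 7 km, a 1.77-fold lower level (unadjusted p = 0.000809, limma adjusted p = 0.14). At 3 km it was -0.67 ± 0.15, or 1.59-fold lower (adjusted p = 0.297). Neither passed, and the altitudes differed by -0.15 ± 0.15 with a 95% interval from -0.51 to 0.20. With 8 arrays the differences were -0.79 ± 0.18 at 7 km (adjusted p = 0.184) and -0.64 ± 0.18 at 3 km (adjusted p = 0.352), so their size did not rest on sea level replicate 3. Over all tested probes, 5.20% lay below sea level at both altitudes without overlap, and Klf9 was the 1 such member; on 8 arrays the share was 7.19%, again with Klf9 alone. Above sea level at both altitudes were 4.63% of probes and 0 members.

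The separation of Klf9 appears after normalization. In the deposited signals, before any scaling, sea level gave 1448, 1543 and 1050, 3 km 1416, 1722 and 1239, and 7 km 1224, 1118 and 1018, and the groups overlapped. Without sea level replicate 3 the unscaled 7 km signals lay below both sea level ones, while those of 3 km still overlapped them. In the value table that the authors deposited, already scaled, sea level read 1361 to 1772, 3 km 1073 to 1221 and 7 km 899 to 1078, again without overlap between sea level and either altitude.

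Fkbp5 encodes a co-chaperone that lowers the receptor's affinity for hormone, and its transcript is a common gauge of receptor activity. Its log2 level at sea level was 8.13, 7.95 and 8.59 on replicates 1, 2 and 3. At 3 km it was 8.59, 8.52 and 8.71, and at 7 km 8.29, 8.35 and 8.55. Sea level replicates 1 and 2 were the lowest arrays of the 9, and sea level replicate 3 lay among the altitude arrays.

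The Fkbp5 value depended on which arrays entered. With 9 arrays the log2 difference was 0.38 ± 0.16 at 3 km (unadjusted p = 0.0446, adjusted p = 0.533) and 0.17 ± 0.16 at 7 km (adjusted p = 0.528). Without that array it was 0.52 ± 0.094 at 3 km, or 1.44-fold (unadjusted p = 0.00129, adjusted p = 0.138), and 0.32 ± 0.094 at 7 km, or 1.25-fold (adjusted p = 0.263). Without sea level replicate 2 it was smaller, 0.25 ± 0.15 at 3 km and 0.04 ± 0.15 at 7 km, and without 7 km replicate 3 it was 0.10 ± 0.18 at 7 km. None of these values passed. On those 8 arrays Fkbp5 was above sea level at both altitudes without overlap, as were 6.69% of probes (16.3% at 7 km and 15.0% at 3 km taken singly). It did not pass, and with arrays scaled to equal medians its difference turned to -0.49 at 3 km and -0.96 at 7 km, beside a median over all probes of -0.55 and -0.64 under that scaling.

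In the deposited signals, before any scaling, the Fkbp5 groups did not overlap: 769, 527 and 687 at sea level, 1355, 1419 and 1187 at 3 km, and 952, 882 and 1073 at 7 km. The 3 km arrays were the highest there and the sea level arrays the lowest. Array brightness enters these values: array medians were 135, 121 and 204 at sea level, 159, 157 and 135 at 3 km, and 144, 136 and 134 at 7 km. The share of all probes that separate in unscaled signals was not computed. After normalization the Fkbp5 groups overlapped on 9 arrays. In the authors' deposited value table the sea level range was 495 to 844 and the 3 km range 981 to 1050, with 7 km at 781 to 956 between them and overlapping sea level. After normalization 7 km differed from 3 km by -0.21 ± 0.16 (95% interval -0.58 to 0.16), and by -0.20 ± 0.084 on 8 arrays (adjusted p = 0.603).

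The windows around the transcription starts of Klf9 and Fkbp5 are shown because these are the members that had groups without overlap at both altitudes, Klf9 below sea level on 9 and on 8 arrays and Fkbp5 above it on 8 arrays only. Each window, from RefSeq on build GRCr8, runs from 250 bases before the start to 50 after it. Klf9 lies on chromosome 1 (gene body 230126646 to 230151641, window chr1:230126396-230126695, plus strand) and Fkbp5 on chromosome 20 (gene body 6458931 to 6577227, window chr20:6543506-6543805, minus strand). The Fkbp5 window surrounds a start inside the gene body, not the outermost start at 6577227, while the Klf9 window lies at the outer start of its gene. Capitals mark the core letters bound by hypoxia-inducible factors, ACGTG or GCGTG, on either strand (the reverse strand reads CACGT or CACGC).
Klf9: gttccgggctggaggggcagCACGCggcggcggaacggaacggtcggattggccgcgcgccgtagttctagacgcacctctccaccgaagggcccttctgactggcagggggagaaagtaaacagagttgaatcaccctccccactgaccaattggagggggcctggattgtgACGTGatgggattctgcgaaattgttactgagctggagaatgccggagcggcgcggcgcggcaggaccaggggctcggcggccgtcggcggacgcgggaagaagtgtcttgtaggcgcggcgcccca
Fkbp5: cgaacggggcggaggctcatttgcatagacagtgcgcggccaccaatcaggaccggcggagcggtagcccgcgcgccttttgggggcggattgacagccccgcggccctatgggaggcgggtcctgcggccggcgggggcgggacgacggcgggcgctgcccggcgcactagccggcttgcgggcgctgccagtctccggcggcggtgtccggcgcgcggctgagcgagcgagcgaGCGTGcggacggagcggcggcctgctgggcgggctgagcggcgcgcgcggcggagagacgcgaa

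The Klf9 window held 2 such cores and the Fkbp5 window 1. A core of this kind occurs in 41.6% of all 33469 windows. Among the members, 8 have a window, 13 windows in all. A core was in 7 of the 13, in 6 members (Klf9, Fkbp5, Tsc22d3, Nr3c1, Errfi1 and Ddit4). The hexamer of the glucocorticoid response element, AGAACA on either strand, was in 0 of these 13 windows and in 20.7% of all windows. The full palindromic element, this hexamer and its reverse complement with 3 bases between them, was in 0.0149% of all windows and in 0 of the members'. These are matches of letters in short windows and say nothing of binding. Nr3c2 and Zbtb16 have no window.

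Sgk1, the serum- and glucocorticoid-regulated kinase, which keeps ion channels and transporters at the cell surface, varied most between arrays (chromosome 1, 24799391 to 24916886, GRCr8). Its log2 level was 10.10, 9.58 and 11.23 at sea level, 9.36, 10.54 and 9.16 at 3 km, and 9.30, 8.95 and 8.96 at 7 km on replicates 1, 2 and 3. All 7 km arrays lay below all sea level arrays, as they did for 12.5% of probes (Klf9 and Sgk1 among the members), while 12.2% lay above, with 0 members. The 3 km group overlapped both others, with replicate 2 far above its 2 partners.

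The log2 difference of Sgk1 at 7 km was -1.24 ± 0.49 (unadjusted p = 0.0374, adjusted p = 0.414), and its 95% interval ran from -2.38 to -0.09. Sea level replicate 3 was the highest array after normalization, and without it the difference was -0.80 ± 0.44 (adjusted p = 0.517). In the deposited signals it had 2045, below 2179 on sea level replicate 1 and 3434.5 on 3 km replicate 2. Unscaled, sea level gave 1487 to 2179 and 7 km 1283 to 1681, so these groups overlapped. At 3 km the difference was -0.62 ± 0.49 (adjusted p = 0.536), -0.16 ± 0.44 without sea level replicate 3, and -1.04 ± 0.45 without 3 km replicate 2. Between the altitudes it was -0.62 ± 0.49 (95% interval -1.76 to 0.53), and -0.19 ± 0.45 without 3 km replicate 2.

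Tsc22d3 encodes GILZ, a leucine zipper protein that carries part of the anti-inflammatory action of glucocorticoids (chromosome X, 109006410 to 109066389). Its log2 level was 10.14, 9.53 and 9.18 at sea level, 9.89, 10.24 and 9.45 at 3 km, and 9.64, 9.71 and 9.77 at 7 km. The 7 km arrays lay close together in the middle of a wide sea level range, so the groups overlapped in every comparison. Its log2 difference was 0.09 ± 0.27 at 7 km (adjusted p = 0.841, 95% interval -0.54 to 0.72) and 0.25 ± 0.27 at 3 km (adjusted p = 0.611). Sea level replicate 3 was the lowest array, and without it the 7 km value changed sign, to -0.14 ± 0.27, and the 3 km value was 0.03 ± 0.27. After normalization Sgk1 and Tsc22d3 were opposite on that array, which then held the highest Sgk1 and the lowest Tsc22d3 of the series.

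Ddit4 encodes REDD1, an inhibitor of mTORC1 that is induced by glucocorticoids and also by hypoxia (chromosome 20, 28434938 to 28437037). Its log2 level was 7.93, 7.81 and 7.72 at sea level, 7.87, 7.62 and 7.65 at 3 km, and 7.69, 7.77 and 7.78 at 7 km. The groups overlapped and spanned a narrow range. The log2 difference was -0.07 ± 0.079 at 7 km (adjusted p = 0.573, 95% interval -0.26 to 0.11) and -0.11 ± 0.079 at 3 km (adjusted p = 0.533). Its signal was 1.56 to 2.82 times the lowest detected signal of the array, and the offset of the background correction compresses the differences of dim probes. With 8 arrays the 7 km difference was -0.10 ± 0.064 (adjusted p = 0.577), and the 7 km arrays then lay below both sea level arrays. On those 8 arrays 3 members (Klf9, Sgk1 and Ddit4) were below sea level without overlap at 7 km, beside 16.1% of probes, and 1 (Klf9) at 3 km, beside 15.6%.

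**Figure D2:**
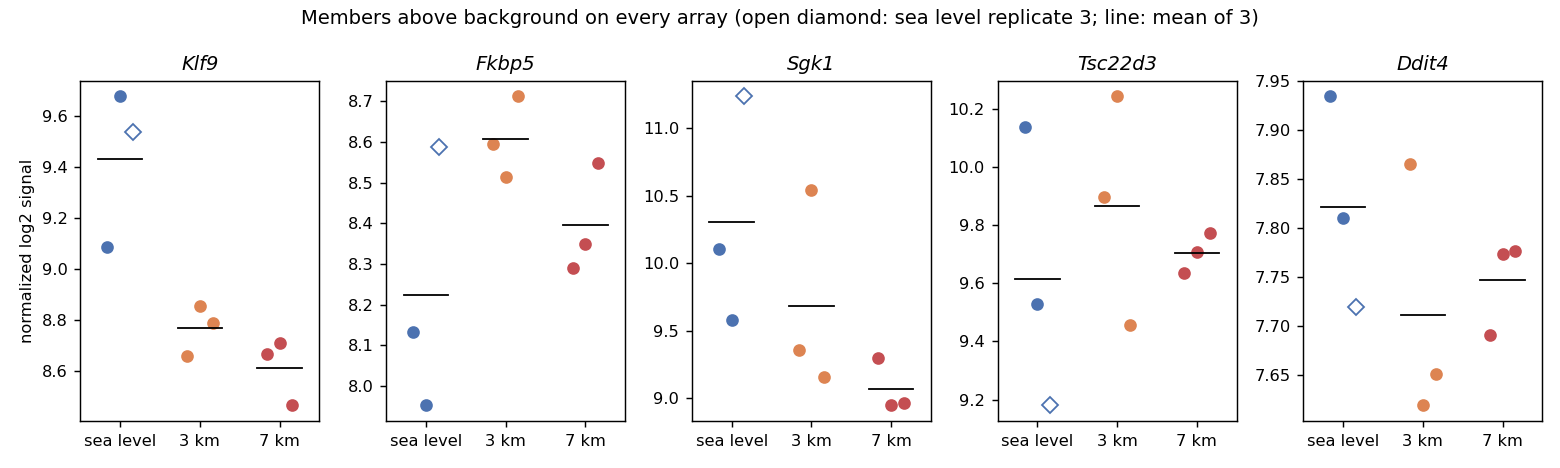
Normalized log2 signal of the 5 members detected on all arrays, by group; points are arrays, lines are means of 3, and the open diamond is sea level replicate 3. Klf9 at both altitudes (8.46 to 8.86) lies below all sea level arrays (9.08 to 9.68), while Fkbp5 separates only if the diamond is left out.

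Across the 5 tested members the median log2 difference was -0.07 at 7 km, -0.11 at 3 km and -0.16 between 7 km and 3 km, with medians over all tested probes of -0.01, 0.00 and 0.00. In the 2 comparisons with sea level 3 of 5 members were below 0, as were 52.3% of probes at 7 km and 50.3% at 3 km. Both comparisons share the sea level arrays. At 3 km 10.7% of probes lay below sea level without overlap (Klf9 among the members) and 8.80% above (0 members). Between the altitudes 4 of 5 members were below 0, as were 50.3% of probes. In either direction, 2 of 5 members at 7 km and 1 of 5 at 3 km had groups that did not overlap, against 24.7% and 19.5% of probes.

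**Figure D3:**
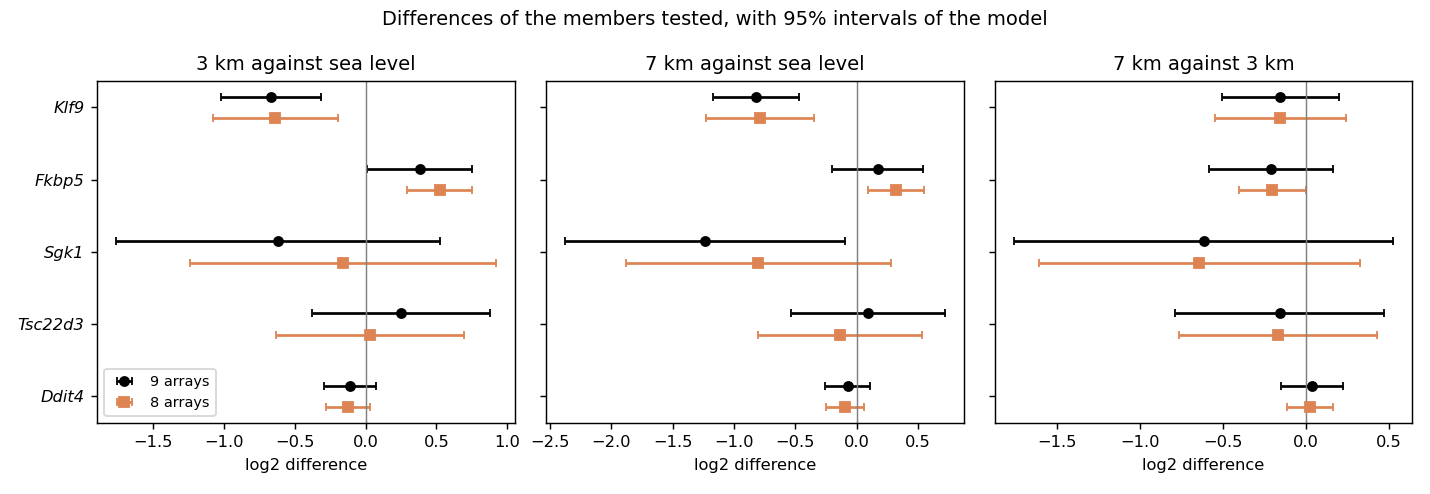
Log2 differences of the 5 tested members in the 3 comparisons with 95% intervals from limma, for all 9 arrays (circles) and without sea level replicate 3 (squares). Intervals of Klf9 exclude 0 in both comparisons with sea level before adjustment over all probes, those of Fkbp5 do so at 3 km in both fits and at 7 km on 8 arrays, and those of Sgk1 are the widest.

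Klf9 stayed below sea level in all 21 alternative settings, from -1.97 to -0.56 at 7 km and from -1.46 to -0.42 at 3 km. It passed at 7 km in 2 of them, without sea level replicate 1 (-0.97, adjusted p = 0.0442) and with array weights (-0.90, adjusted p = 0.0374); its adjusted p over the alternatives ran from 0.0374 to 0.491. The weights fit gave sea level replicate 3 a weight of 0.0439 against 0.658 to 3.47 on the others, and it called 176 probes at 7 km and 120 at 3 km. Fkbp5 passed in 1 of its 21 settings, at 3 km with array weights (0.58, adjusted p = 0.0197; 0.0197 to 0.733 over the alternatives), and turned negative in 1, the scaling to equal medians.

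**Figure D4:**
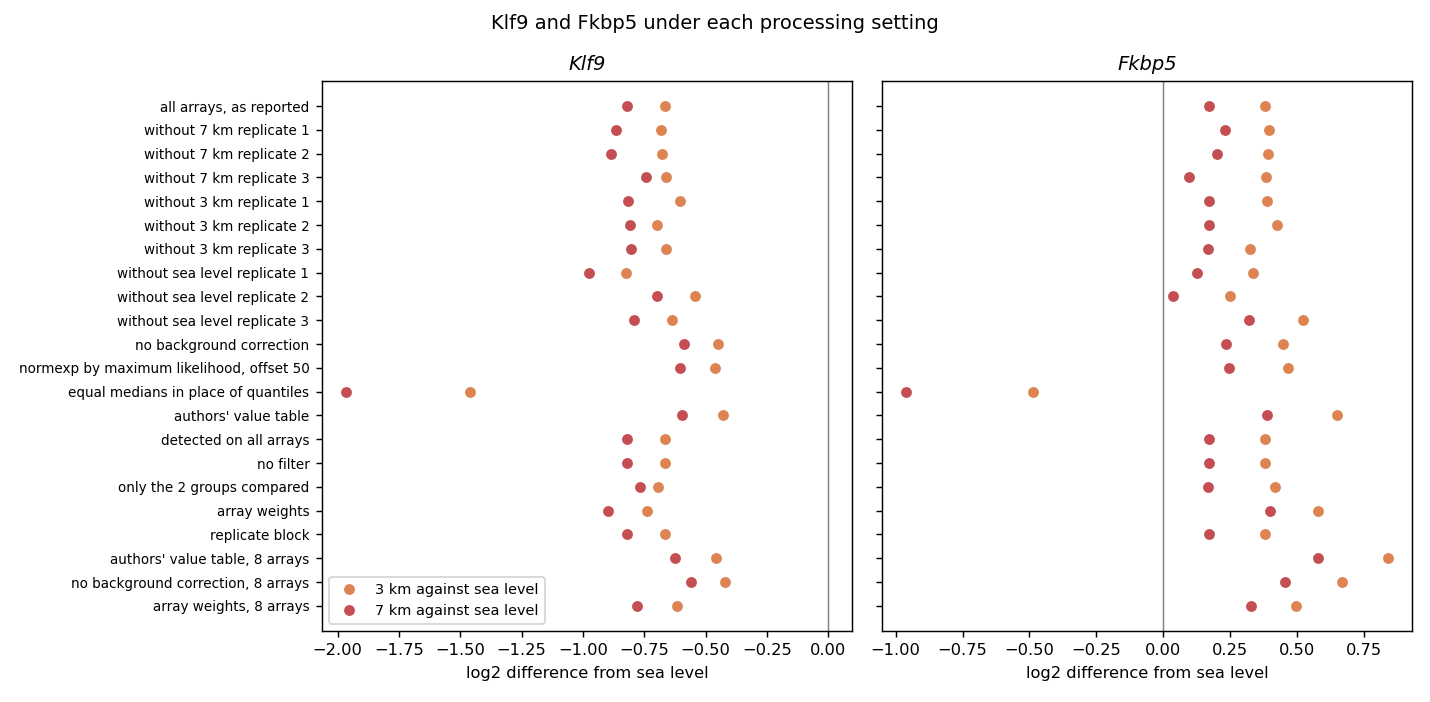
Log2 difference of Klf9 and Fkbp5 from sea level under each processing setting, for 3 km and 7 km; the top row is the result as reported. Klf9 lies below 0 in every row, and Fkbp5 above 0 in every row but that with equal medians (-0.49 and -0.96).

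Genes whose arrays behaved most like the widest-ranging members were sought over the 8 arrays, as the root mean square difference between centred log2 values, among 4752 other named genes. For Sgk1 they were Txnip, an inhibitor of thioredoxin (0.34), and Olig1, a transcription factor of the oligodendrocyte lineage (0.36), beside a spread of Sgk1 itself of 0.55. For Klf9 they were Acat2, a thiolase of sterol synthesis (0.14), and Omg, a glycoprotein of the myelin surface (0.14), beside a spread of 0.36. For Tsc22d3 they were Txnip (0.14) and Sesn1, a stress-induced sestrin (0.15), beside a spread of 0.27. Txnip was thus the nearest gene of both Sgk1 and Tsc22d3, whose highest array among the 8 was 3 km replicate 2 in each case.

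Oligodendrocyte markers read low on the 7 km arrays, where Sgk1 and Klf9 also did. Klf9 was low at 3 km too (8.66 to 8.86, against 8.46 to 8.71 at 7 km), where the marker mean was nearer to that of sea level. Of 11 listed markers, 10 had a probe and 8 were tested. All 8 were below 0 at 7 km with 9 arrays (7 with 8 arrays), with a median log2 difference of -0.46 (-0.30), and 0 passed limma's test (4 at an unadjusted p under 0.05). Their mean, against the 8-array mean, was -0.53 to -0.08 at 7 km, 0.03 to 0.29 at 3 km and 0.26 to 0.36 at sea level. Their summed signal was 8824 to 10841, 12388 to 19027 and 9087 to 14340 in these groups, and Mag was above background on no array. At 3 km 6 of 8 were below 0 against sea level, with a median of -0.23 (3 at an unadjusted p under 0.05). Oligodendrocytes were not the only cell type with such differences. Of 4 tested endothelial markers, 2 were above and 2 below 0 at 7 km on 9 and on 8 arrays. In both fits 1 of them passed, with a lower level at 7 km. The part of either cell type in the members' values was not tested.

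Beyond the members, no gene of the machinery that serves the receptor passed. Of 15 chaperones and cofactors of the receptor, 8 had a named probe and 7 were tested; 0 passed in any comparison, and 2 were above and 5 below 0 at 7 km (median -0.03) and at 3 km (median -0.04). Hsp90ab1, the constitutive HSP90 that holds the receptor ready for hormone, had 0.86 ± 0.38 at 7 km and 0.65 ± 0.38 at 3 km. The size of these values depended on sea level replicate 3, where the probe was at 7.30 and not detected. Replicates 1 and 2 had 8.97 and 8.55. Without sea level replicate 3 the differences were 0.38 ± 0.16 and 0.16 ± 0.16. At 7 km the limma unadjusted p was 0.0577 with 9 arrays and 0.0564 with 8, so it hardly changed. Bag1, a nucleotide exchange factor of HSP70 that also restrains the receptor, had -0.13 ± 0.051 at 7 km (unadjusted p = 0.0423, adjusted p = 0.414) and -0.05 ± 0.051 at 3 km. Without sea level replicate 3, where it was highest, Bag1 had -0.06 ± 0.026 (unadjusted p = 0.0642) and 0.00 ± 0.026. The corepressor Ncor1 had -0.18 ± 0.11 at 7 km and -0.24 ± 0.11 at 3 km, and the coactivator Ncoa1 -0.14 ± 0.13 and -0.16 ± 0.13; both were highest on sea level replicate 3, and without it Ncor1 had -0.02 ± 0.028 and -0.07 ± 0.028 and Ncoa1 0.02 ± 0.028 and 0.00 ± 0.028. Between the altitudes, Bag1 had -0.08 ± 0.051, Hsp90ab1 0.21 ± 0.38, Ncor1 0.06 ± 0.11 and Hsp90aa1, the inducible HSP90, -0.04 ± 0.079.

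The enzyme that regenerates active hormone inside cells read higher at altitude on 8 arrays. Hsd11b1, 11beta-hydroxysteroid dehydrogenase type 1, had log2 levels of 9.16, 9.08 and 10.10 at sea level, 9.97, 10.44 and 9.85 at 3 km, and 10.06, 10.47 and 10.23 at 7 km. Sea level replicates 1 and 2 were well below every altitude array, and sea level replicate 3 lay among them, the same arrangement as in Fkbp5. With 9 arrays its log2 difference was 0.81 ± 0.29 at 7 km (unadjusted p = 0.0253, adjusted p = 0.414) and 0.64 ± 0.29 at 3 km (adjusted p = 0.533). Without sea level replicate 3 it was 1.18 ± 0.21 (2.27-fold, adjusted p = 0.11) and 1.00 ± 0.21 (adjusted p = 0.187). It did not pass in either fit, and between the altitudes it had 0.17 ± 0.29. It passed with array weights at 7 km (adjusted p = 0.0217) and at 3 km (0.0282), and at 7 km on 8 arrays without background correction (0.0288), over a range of adjusted p from 0.0217 to 0.764 at 7 km and from 0.0282 to 0.996 at 3 km. With equal medians, which moved the median of all probes by -0.64, the 7 km value was -0.31. H6pd, which supplies that enzyme with NADPH, had 0.11 ± 0.061 at 7 km, 0.10 ± 0.061 at 3 km and 0.01 ± 0.061 between them. It was not detected on sea level replicate 3, without which the values were 0.03 ± 0.022 and 0.02 ± 0.022 against sea level. Of the 5 genes listed for local steroid handling, 3 had a probe and these 2 were tested.

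Other genes known to be induced by glucocorticoids lay on both sides of 0. Of 39 listed, 26 had a probe and 15 were tested; 8 were above and 7 below 0 at 7 km, and 9 above and 6 below at 3 km. None passed limma's test over all probes, while 6 at 7 km and 7 at 3 km had an unadjusted p under 0.05, beside 11.4% and 8.07% of all probes. The medians were 0.03 and 0.02.

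As normalized here, the largest differences of that list at 7 km were those of Mt1 and Gjb6. Mt1, a zinc- and copper-binding metallothionein, had log2 levels of 8.43, 8.23 and 8.19 at sea level, 10.30, 10.13 and 9.58 at 3 km, and 9.51, 9.89 and 9.88 at 7 km. All altitude arrays were above all sea level arrays by over 1 log2 unit. It had 1.48 ± 0.19 at 7 km (adjusted p = 0.0507) and 1.72 ± 0.19 at 3 km (adjusted p = 0.0782), and 1.46 ± 0.24 and 1.72 ± 0.24 on 8 arrays. It passed in 7 of 21 alternatives at 7 km (adjusted p from 0.00919 to 0.779) and in 5 of 21 at 3 km (0.00587 to 0.445), and was above 0 in all of them. Gjb6, connexin 30 of astrocyte gap junctions, had 10.42, 10.31 and 9.92 at sea level, 11.10, 11.29 and 10.65 at 3 km, and 11.28, 11.48 and 11.37 at 7 km. Its difference was 1.16 ± 0.18 at 7 km (adjusted p = 0.09), 0.79 ± 0.18 at 3 km (adjusted p = 0.301) and 0.36 ± 0.18 between the altitudes, and on 8 arrays 1.04 ± 0.19 and 0.67 ± 0.19 against sea level. It passed in 2 of 21 alternatives at 7 km (adjusted p from 0.0176 to 0.79) and in 1 at 3 km (0.0482 to 0.904).

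Nfkbia, which encodes the inhibitor of NF-kappaB, lay below its sea level values at altitude, as Klf9 did. Its levels were 9.55, 9.09 and 9.32 at sea level, 8.64, 8.83 and 8.38 at 3 km, and 8.44, 8.82 and 8.81 at 7 km, with no overlap between sea level and either altitude. The difference was -0.63 ± 0.17 at 7 km (adjusted p = 0.316) and -0.70 ± 0.17 at 3 km (adjusted p = 0.301), and it did not pass. On 8 arrays it was -0.64 ± 0.20 and -0.72 ± 0.20. Lcn2, the iron-siderophore carrier lipocalin 2, was detected on 3 of 3 arrays at each altitude and on 0 at sea level. Its fitted difference was 0.32 ± 0.073 at 7 km (adjusted p = 0.247) and 0.19 ± 0.073 at 3 km (adjusted p = 0.533). Neither passed, and no fold is given because its sea level signal was below background. Lcn2 passed at 7 km in 4 of 20 alternatives (adjusted p from 0.0134 to 0.591). Its fitted value there ran from 0.23 on 8 arrays to 3.83 in the authors' deposited table, where values are floored.

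The remaining named genes of the list gave smaller or less even values. Gpd1, glycerol-3-phosphate dehydrogenase, had 0.53 ± 0.16 at 3 km (adjusted p = 0.46), led by replicate 2 at 8.48, and 0.45 ± 0.17 without sea level replicate 3. Between 7 km and 3 km the smallest p-values belonged to Dusp1, a phosphatase of MAP kinases (-0.29 ± 0.11, unadjusted p = 0.0315), the GTPase gene Rhob (0.42 ± 0.19) and the clock gene Per1 (-0.21 ± 0.10), with adjusted p = 1 for each. Against sea level Dusp1 had -0.30 ± 0.11 at 7 km (unadjusted p = 0.0245, adjusted p = 0.414) and -0.02 ± 0.11 at 3 km. Without sea level replicate 3 these were -0.29 ± 0.13 (limma unadjusted p = 0.0676) and 0.00 ± 0.13. Rhob had -0.59 ± 0.19 at 3 km and -0.17 ± 0.19 at 7 km against sea level. Per1 had 0.28 ± 0.10 at 3 km and 0.06 ± 0.10 at 7 km. On 8 arrays Rhob had -0.53 ± 0.23 and -0.10 ± 0.23, and Per1 0.17 ± 0.082 and -0.02 ± 0.082, in the same order. The Dusp1 arrays of the 2 altitudes did not overlap, at 9.62 to 9.70 at 3 km against 9.24 to 9.47 at 7 km, as in 7.71% of probes that were lower at 7 km.

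Genes known to be repressed by glucocorticoids gave few readings. Of 8 with a probe 3 were tested, and 0 passed. Bdnf, a neurotrophin, had 7.67, 7.61 and 7.60 at sea level, 7.55, 7.53 and 7.54 at 3 km, and 7.57, 7.46 and 7.48 at 7 km, and both altitudes lay below sea level without overlap. Its difference was -0.12 ± 0.038 at 7 km (unadjusted p = 0.0133, adjusted p = 0.373) and -0.09 ± 0.038 at 3 km (adjusted p = 0.533). On 8 arrays it was -0.10 ± 0.028 and -0.07 ± 0.028. Ptgs2, the inducible cyclooxygenase, had 0.00 ± 0.071 at 7 km, 0.10 ± 0.071 at 3 km and -0.10 ± 0.071 between them. On 8 arrays it had 0.02 ± 0.063 and 0.10 ± 0.063 against sea level. The cytokine gene Il1b had 0.04 ± 0.045 at either altitude. Il1b was not detected on sea level replicate 3, and without that array its difference turned to -0.01 ± 0.0145 at either altitude. The stress hormone genes Crh and Pomc, Tnf, Ccl2 and Nos2 did not pass the filter and were not tested.

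**Figure D5:**
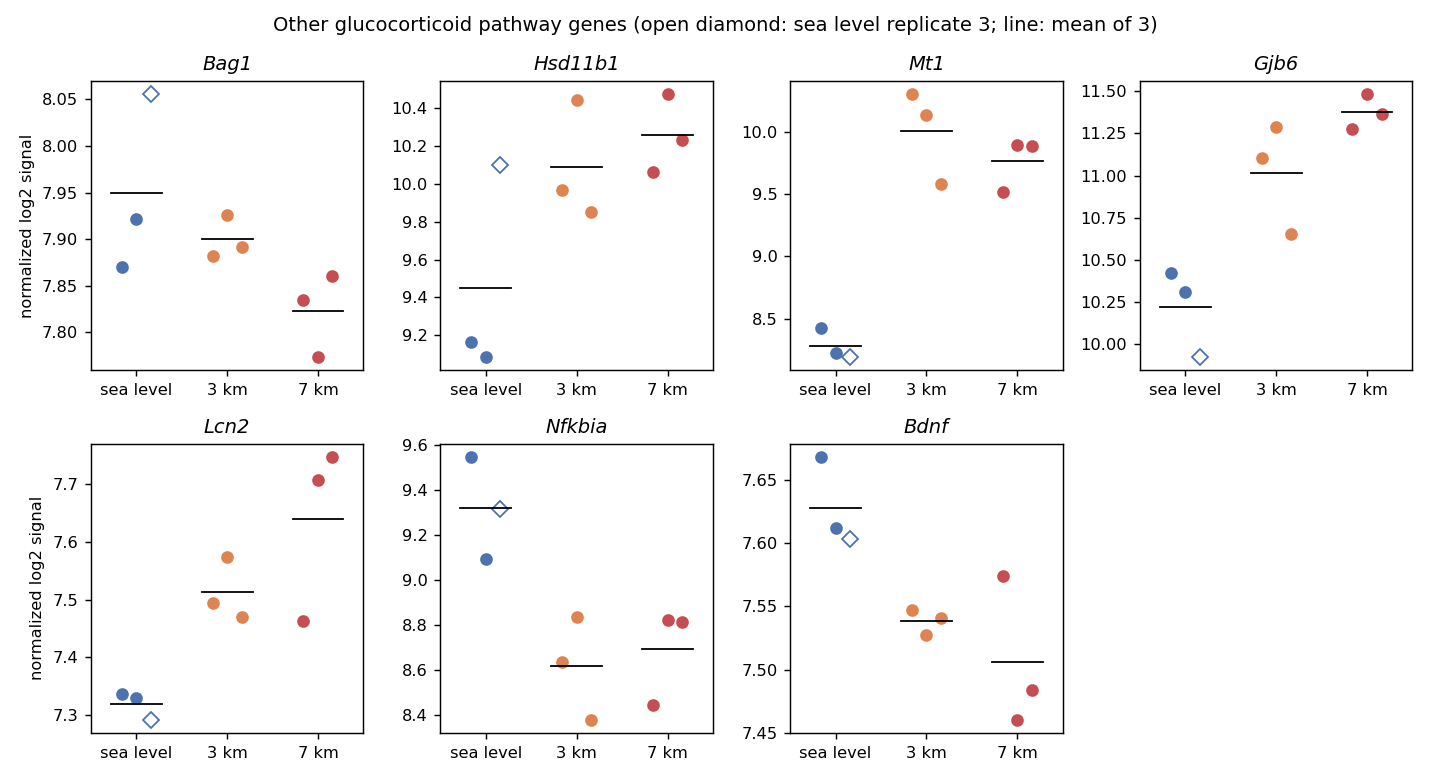
Normalized log2 signal by group of 7 other glucocorticoid pathway genes, those with an unadjusted p under 0.05 among the up to 4 genes per list with the smallest p at 7 km against sea level; points are arrays, lines are means of 3, and the open diamond is sea level replicate 3. Mt1 and Gjb6 at altitude lie above, and Nfkbia and Bdnf below, all sea level arrays, while the diamond of Hsd11b1 (10.10) lies among its altitude arrays.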

How the data were processed

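The deposited non-normalized table holds signal intensity and a detection p-value by probe (22523) and array (9, rat cortex); all signals are positive, with medians that differ between arrays, so the authors had neither subtracted background nor scaled them. Per the labels' protocols, Trizol RNA was purified on a column with DNase and labelled with biotin. The authors also deposited processed intensity values of 21675 probes, below 0 in part and scaled to nearly equal means by an unstated method; these served as an alternative, floored at 16.

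Signals were corrected with neqc of limma 3.58.1 in R 4.3.3 (controls inferred from detection p-values, offset 16, quantile normalization, log2). Probes detected at 0.05 on at least 3 arrays were tested with a mean per group, eBayes and Benjamini-Hochberg adjustment. In data simulated for 7 km against sea level over 6656 probes, 62% of probes changed by 0.5 (log2) were recovered. So were 82% of those changed by 1 and 98% of those changed by 2, with 7 false calls. The simulation planted 50 changed probes at each size, whereas the measured fit called 8 probes in all. In that fit Mt1 at 1.48 (adjusted p = 0.0507) and Sgk1 at -1.24 (adjusted p = 0.414) did not pass. The simulated rates therefore do not give the chance of calling a change on these arrays, and a member not called may still differ. The number of arrays limits precision. Symbols were those of the platform annotation: 13353 probes have 1, 0 several and 9170 none. Sequences are from RefSeq, build GRCr8.

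Members and lists were chosen with earlier results of these data known. All members are described; from each pathway list, up to 4 genes with the smallest p per comparison are named, and for the 3 members of widest range over 8 arrays, the 2 nearest genes. Same-numbered arrays are not said to be paired.

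Alternatives left out each array, changed the background correction, the scaling, the filter, the arrays fitted and the source of values, and added array weights or a replicate block; 3 more were added after seeing the data.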

Additional observations from a re-analysis of the deposited data

How the results depend on the processing

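The 21 alternatives gave 1121 values for 54 gene differences, of which 61 had the opposite sign and 26 passed; 33 of the 54 differences never changed sign. The cause of these turns was not tested. With array weights the opposite sign was found in Il1b -0.0180, Sgk1 0.1497 for 3 km against sea level, and Il1b -0.0167, Ncoa1 0.0019 for 7 km against sea level. With array weights on 8 arrays the opposite sign was found in Bag1 0.0081, Il1b -0.0097, Ncoa1 0.0017, Sgk1 0.0702 for 3 km against sea level, and Il1b -0.0087, Ncoa1 0.0082, Tsc22d3 -0.1247 for 7 km against sea level. In the authors' value table the opposite sign was found in Bag1 0.0153 for 3 km against sea level, and Il1b -0.0487 for 7 km against 3 km. In the authors' value table on 8 arrays the opposite sign was found in Bag1 0.0394, Il1b -0.1450, Ncoa1 0.0147 for 3 km against sea level, and Il1b -0.0487 for 7 km against 3 km, and Il1b -0.1938, Ncoa1 0.1389, Tsc22d3 -0.0641 for 7 km against sea level. With equal medians in place of quantiles the opposite sign was found in Fkbp5 -0.4854, Gpd1 -0.1087, Ptgs2 -0.5657, Tsc22d3 -0.4654 for 3 km against sea level, and Ddit4 -0.0475, H6pd -0.0421, Hsd11b1 -0.3188, Hsp90ab1 -0.1886, Il1b -0.0215, Rhob -0.0899 for 7 km against 3 km, and Fkbp5 -0.9609, Hsd11b1 -0.3133, Ptgs2 -0.7299, Tsc22d3 -1.1948 for 7 km against sea level. Without background correction the opposite sign was found in Il1b -0.0007 for 7 km against 3 km, and Ptgs2 -0.0007 for 7 km against sea level. Without background correction on 8 arrays the opposite sign was found in Bag1 0.0072, Il1b -0.0707 for 3 km against sea level, and Il1b -0.0009 for 7 km against 3 km, and Il1b -0.0716, Ncoa1 0.0649, Tsc22d3 -0.0713 for 7 km against sea level. With normexp by maximum likelihood at an offset of 50 the opposite sign was found in Il1b -0.0012 for 7 km against 3 km, and Ptgs2 -0.0011 for 7 km against sea level. Leaving out 1 array at a time gave ranges of -0.0898 to 0.0029 for Bag1, -0.253 to 6e-04 for Ncoa1 and -0.0107 to 0.0731 for Il1b at 3 km. At 7 km against sea level they were -0.2323 to 0.0152 for Ncoa1, -0.0106 to 0.0733 for Il1b, -0.0394 to 0.0324 for Ptgs2 and -0.1359 to 0.347 for Tsc22d3. Between the altitudes they were -0.0111 to 0.1159 for Ddit4, -0.0113 to 0.031 for H6pd, -0.0077 to 0.0086 for Il1b and -0.3617 to 0.0263 for Tsc22d3. Members called at 7 km numbered 0 to 1 when 1 array was left out and 1 with array weights, and at 3 km 1 with array weights. Other pathway genes called at 7 km numbered 0 to 1 when 1 array was left out (1 without 3 km replicate 3), 1 without background correction, with normexp by maximum likelihood and in the authors' table, and 6 with array weights. On 8 arrays they numbered 3 in the authors' table, 5 without background correction and 1 with array weights. At 3 km they numbered 0 to 1 when 1 array was left out (1 without 3 km replicate 3) and 3 with array weights, and on 8 arrays 3, 2 and 1 in the same order. All probes called at 7 km, 8 as reported, numbered 0 to 20 when 1 array was left out: 20 without sea level replicate 3, 2 without 3 km replicate 3, and 0 without any one of the 7 km arrays, 3 km replicates 1 or 2, or sea level replicate 2. They numbered 0 with equal medians or only the 2 groups compared, 13 in the authors' table, 4 with detection on all arrays and 176 with array weights, and on 8 arrays 34 in the authors' table, 60 without background correction and 29 with array weights. At 3 km, 0 as reported, they numbered 0 to 1 when 1 array was left out (1 without 3 km replicate 3), 3 in the authors' table, 1 with no filter and 120 with array weights, and on 8 arrays 17, 17 and 47 in the same order as before. Between the altitudes, 0 as reported, they numbered 1 in the authors' table and 4 there on 8 arrays. With the replicate number as a replicate block, 0 probes were called at 7 km and no member passed, Klf9 among them (-0.82, adjusted p = 0.154). Deviations of each array from its group mean were correlated over the tested probes between arrays of the same number. These 9 correlations ran from 0.0131 to 0.3049, 3 of them over 0.1. In 11 of 18 comparisons of an array with the 3 arrays of another group, its deviations correlated best with those of its own number. These comparisons share arrays and are not independent, and no test was made of the count. It therefore does not show a pairing, and the labels state none. Dim signal limits the set: 5 of 10 members gave no usable level.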
